A study of Mus musculus with 8 samples.

Results

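The genes described here are 10 ligands, receptors, inhibitors and targets of the Wnt pathway, of 19591 genes listed in the count tables of mouse skin epidermis: *Rspo3*, *Wnt4*, *Wnt10a*, *Lgr5*, *Lgr6*, *Fzd2*, *Sfrp1*, *Dkk3*, *Shisa2* and *Axin2*. They were found by symbol, and all 10 were listed. They were selected on values of these data, namely the high count of *Rspo3* in sorted EGFP+ cells compared with EGFP- cells and the high levels of *Sfrp1*, *Dkk3* and *Fzd2* in bulge-like cells. Those contrasts are therefore given as a description, with no test on these genes.

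All mice were adult C57BL/6 animals carrying Troy-EGFP-IRES-CreERT2, a knockin in which EGFP, an internal ribosome entry site and tamoxifen-inducible Cre stand in place of the *Troy* (*Tnfrsf19*) coding region, so EGFP reports activity of the *Troy* locus and the allele makes no TROY. In 2 mice, mRNA of 3 sorted populations was counted in bulk by CEL-Seq2: all viable (DAPI-) epidermal cells, ITGA6bright EGFP+ cells and ITGA6bright EGFP- cells. ITGA6 is an integrin that is bright on basal layer keratinocytes. Single cells of 4 Troy-EGFP mice were sorted into 384-well plates (1 mouse a plate) and sequenced by SORT-seq. They were sorted as ITGA6-, ITGA6bright EGFP- or ITGA6bright EGFP+ cells. The labels do not say whether these mice were other than the bulk mice. The last 2 plates held cells sorted on ITGA6, EGFP and tdTomato from mice that also carried Rosa26-LSL-tdTomato, in which tamoxifen marks cells with an active *Troy* locus and their progeny with tdTomato. According to the methods of the study these traced mice were homozygous for both alleles, so they had no intact *Troy* copy, and were traced for a week after tamoxifen. The gate of each well was not used here, since the tables name wells only by number, and the labels state no sex for any sample. By the methods of the study the traced mice were male, and mice of both sexes were used otherwise.

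Wnt ligands bind Frizzled receptors and stabilise β-catenin, which switches on targets such as *Axin2*. R-spondins bind LGR receptors and make cells more sensitive to Wnt, whereas secreted Frizzled-related proteins and Dickkopf-family proteins act outside the cell and are mostly known as inhibitors. In resting (telogen) skin, basal cells of the interfollicular epidermis (IFE) are known to depend on Wnt signals, and the bulge of the hair follicle (HF) holds quiescent stem cells that are rich in Wnt inhibitors.

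The 6 bulk libraries held between 157537 and 453005 counts. Among 2304 wells of the plates, 1109 held at least 1000 transcripts without spike-ins and mitochondrial genes and were kept, from 71 wells on Troy-EGFP plate 1 to 262 on plate 4. Every plate had the same 384 well numbers, so wells are told apart by plate only. Troy-EGFP plate 1 stood apart, since 44 of its 71 kept wells fell in a cluster led by *Mir1950* with a median of 1389 transcripts a cell, and none of its other clusters had the 10 cells needed for a value. *Mir1950* is used as a marker of necrotic cells in the methods of the study, and that cluster was left out. Replicate libraries differed by more than counting noise, with chi-square per degree of freedom between 1.50 and 4.06 for bulk pairs and between 2.48 and 20.7 for plates of a group. Markers of basal keratinocytes (5 of 5) were detected in every bulk library, and summed to 21587 to 22199 CPM in EGFP+, 17084 to 19830 CPM in viable and 10620 to 12905 CPM in EGFP- libraries. Langerhans cell markers summed to 92.7 to 102 CPM in EGFP+, 347 to 580 CPM in viable and 1124 to 1201 CPM in EGFP- libraries. In EGFP+ libraries 4 of the 7 markers were detected and the defining marker *Cd207* was at 0 in both. Fibroblast and dermal papilla markers summed to 334 and 128 CPM in viable, 166 and 118 CPM in EGFP+ and 140 and 112 CPM in EGFP- libraries. Melanocyte markers summed to 32.8 and 19.9, 4.95 and 0, and 19.0 and 15.9 CPM in the same order. The part of Langerhans cells, of these other cells or of the basal cell share in the results below was not tested. *Tnfrsf19* itself had 41 and 16 counts in the EGFP+ libraries, 3 and 6 in the EGFP- libraries and 24 and 37 in the viable libraries, so both EGFP+ libraries were above both EGFP- libraries.

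All 10 genes are protein coding, and their places are given on GRCm38 from GENCODE vM21. Of the ligands, *Rspo3* is at chr10:29452416-29535867 (minus strand), *Wnt4* at chr4:137277489-137299726 (plus) and *Wnt10a* at chr1:74791516-74804179 (plus). Of the receptors, *Lgr5* is at chr10:115450311-115587780 (minus), *Lgr6* at chr1:134983301-135105276 (minus) and *Fzd2* at chr11:102604396-102608058 (plus). The inhibitors are *Sfrp1* at chr8:23411502-23449632 (plus), *Dkk3* at chr7:112116017-112159057 (minus) and *Shisa2* at chr14:59625308-59631660 (plus), and *Axin2* is at chr11:108920349-108950783 (plus). RefSeq promoters were at hand for 4 of the 10 genes: *Axin2*, *Lgr6*, *Shisa2* and *Wnt4*. The 250 bases before the start of *Shisa2*, among the genes highest in follicle cells below, and of the pathway target *Axin2* are shown to contrast the promoter of a gene restricted to a few clusters with that of a gene found in most. Positions are chr14:59625031-59625280 for *Shisa2* and chr11:108920099-108920348 for *Axin2*, both GRCm38.p6 and plus strand, and lower case throughout marks that no motif was found in either.
Shisa2: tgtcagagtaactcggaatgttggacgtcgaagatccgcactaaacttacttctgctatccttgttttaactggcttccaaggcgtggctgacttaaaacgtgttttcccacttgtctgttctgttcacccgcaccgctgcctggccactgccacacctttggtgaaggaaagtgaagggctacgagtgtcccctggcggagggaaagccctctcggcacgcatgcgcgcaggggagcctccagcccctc
Axin2: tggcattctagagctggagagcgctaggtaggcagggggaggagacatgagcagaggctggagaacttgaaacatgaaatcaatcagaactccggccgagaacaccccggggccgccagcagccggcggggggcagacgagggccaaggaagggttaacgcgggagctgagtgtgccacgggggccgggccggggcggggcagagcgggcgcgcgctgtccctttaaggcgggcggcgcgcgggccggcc
The core motifs of TCF/LEF factors TCAAAG and ACAAAG were searched on both strands. They were in none of the 4 promoters, and 27.6% of 32851 mouse promoters of the same length held at least 1 of them. The share of G and C was 56% before *Shisa2* and 69.2% before *Axin2*, compared with a median of 52.4% over all promoters, and no match says only that these letters are not in these windows.

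Sorting on EGFP separated *Rspo3* more than any other of the 10 genes with counts in both populations. *Rspo3*, a secreted R-spondin that enhances Wnt signals, had 21 and 10 counts in the EGFP+ libraries of mice 1 and 2, 1 and 0 in the EGFP- libraries and 15 and 14 in the viable libraries. Over both mice this was 31 against 1 count. In CPM (counts per 1e+06 counts of a library, scaled by TMM, edgeR's normalization), *Rspo3* was 46.9 ± 7.25 (SD, n = 2) in EGFP+ and 38.9 ± 13.9 in viable cells, and the single EGFP- count came from mouse 1. In the comparison of EGFP+ with EGFP- cells edgeR called 7.05% of 4653 genes at an adjusted p under 0.05, and since this contrast chose the genes no call on them is read from it.

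The other ligands differed less between the gates. *Wnt4*, a ligand made by basal keratinocytes, was at 176 and 138 CPM in EGFP+, 124 and 95.3 CPM in EGFP- and 104 and 114 CPM in viable cells. EGFP+ libraries were thus above all others for *Wnt4*, by 1.48 times over EGFP- in summed counts scaled for library size. *Wnt10a*, a ligand known from hair, tooth and skin development, was at 74.3 and 25.1 CPM in EGFP+, 41.4 and 15.9 CPM in EGFP- and 35.7 and 31.1 CPM in viable cells. Within each mouse *Wnt10a* was higher in EGFP+ than in EGFP- cells, and mouse 1 was higher than mouse 2 in both gates, so that EGFP- cells of mouse 1 were above EGFP+ cells of mouse 2.

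Bulge-associated receptors and inhibitors were low in both gates. *Lgr5*, an R-spondin receptor that marks lower follicle stem cells, had 0 counts in both EGFP+ libraries, 1 and 3 in the EGFP- libraries and 6 and 11 in the viable libraries. *Dkk3*, a divergent Dickkopf-family protein, had 0 counts in both EGFP+ libraries, 2 and 1 in EGFP- and 5 and 14 in viable libraries. The EGFP+ libraries were the only ones without a count of either gene. *Shisa2*, which holds Frizzled receptors back in the endoplasmic reticulum, had 1 and 0 counts in EGFP+, 0 and 1 in EGFP- and 3 and 4 in viable libraries. *Lgr6*, an R-spondin receptor of upper follicle and IFE cells, had between 2 and 5 counts in every library, too few to order the populations.

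*Fzd2* and *Sfrp1* were abundant enough to be followed in every library. *Fzd2*, a Frizzled receptor, was at 42.1 and 29.2 CPM in EGFP+, 41.4 and 68.8 CPM in EGFP- and 94.2 and 104 CPM in viable cells. *Sfrp1*, a secreted inhibitor that binds Wnt ligands, was at 156 and 167 CPM in EGFP+, 117 and 101 CPM in EGFP- and 399.6 and 400.4 CPM in viable cells. Both gates lay below the viable cells for these genes in both mice, and the gates overlapped for *Fzd2* but not for *Sfrp1*. *Axin2*, a feedback inhibitor that is switched on by the pathway, was at 47.0 and 20.9 CPM in EGFP+, 6.90 and 15.9 CPM in EGFP- and 19.5 and 22.8 CPM in viable cells. Its EGFP+ libraries were above the EGFP- libraries in both mice (24 against 4 counts over both mice).

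**Figure D1:**
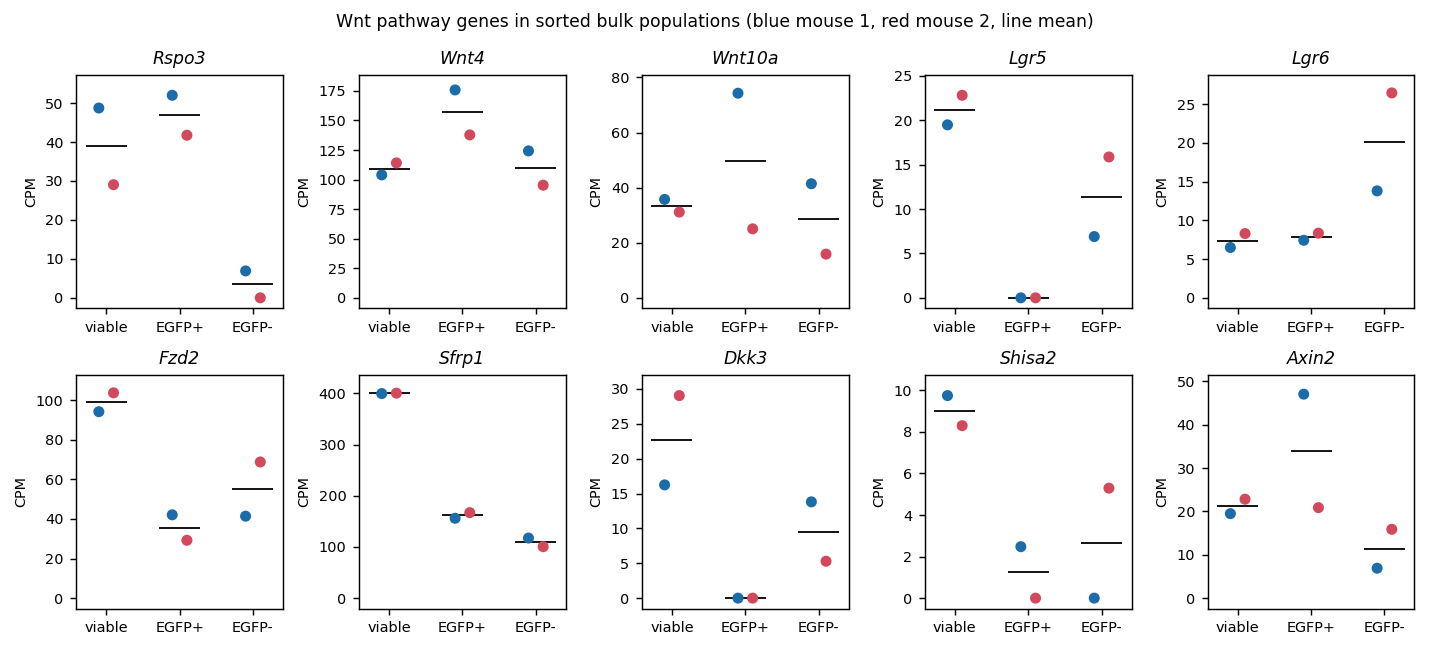
Levels of the 10 Wnt pathway genes in bulk libraries, in CPM on the vertical axis, for viable, EGFP+ and EGFP- cells of mouse 1 (blue) and mouse 2 (red), with the mean as a line. *Rspo3* is near 0 in EGFP- cells, *Lgr5* and *Dkk3* are at 0 in both EGFP+ libraries, and *Sfrp1* and *Fzd2* are highest in viable cells.

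Each gate was then compared with all viable cells, which asks which of the genes differed between a gate and the whole. The study found single ITGA6bright EGFP- cells enriched in its lower HF cluster, so a lower level in that gate is not read as a loss of bulge cells. These comparisons share the viable libraries with each other, and their gated libraries with the contrast that chose *Rspo3*. Of the genes tested only *Sfrp1* passed the threshold in both: it fell by 1.32 ± 0.27 (SE) on the log2 scale in EGFP+ cells (edgeR adjusted p = 0.0281) and fell by 1.87 ± 0.31 in EGFP- cells (edgeR adjusted p = 0.00299), each over 2 mice. Of the 10 genes 5 had enough counts for the fit. *Rspo3* was chosen on these gated libraries and is given without a test, and of the other 4 genes 1 was called in each comparison, where 0.473% (EGFP+) and 1.78% (EGFP-) of all 4653 tested genes were called. With mouse as a block it was again 1 of 4, beside 1.05% and 3.5%. The median log2 difference of the 4 genes was -0.40 in EGFP+ and -0.54 in EGFP- cells, beside 0.01 and 0.04 over all genes tested. In bulk cells, fewer cells of a type and less RNA per cell cannot be told apart.

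*Fzd2* differed from viable cells by -1.43 ± 0.37 on the log2 scale in EGFP+ cells without passing the threshold (edgeR adjusted p = 0.119, and 0.0543 with mouse as a block), and by -0.80 ± 0.40 in EGFP- cells (adjusted p = 0.397). In EGFP+ cells *Fzd2* was called when only the 4 libraries compared were fitted (edgeR adjusted p = 0.0239) or when either EGFP- library was left out (adjusted p = 0.00376 and 0.00475). The fitted log2 difference of *Rspo3* from viable cells was -3.46 ± 1.03 in EGFP- cells, which rests on the 1 EGFP- count, and 0.33 ± 0.48 in EGFP+ cells. The former was -6.61 without EGFP- replicate 1, which held that count, and -2.41 without EGFP- replicate 2. *Wnt4* (0.52 ± 0.30 in EGFP+, -0.00 ± 0.34 in EGFP- cells) and *Wnt10a* (0.69 ± 0.48 and -0.27 ± 0.66) did not pass the test in either gate. The value of *Wnt10a* in EGFP- cells turned to 0.28 without EGFP- replicate 2 and was -1.05 without EGFP- replicate 1, so it gives no direction.

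*Lgr5* and *Dkk3* did not pass the filter on low counts. Without it edgeR called both lower in EGFP+ than in viable cells, with adjusted p = 0.0135 for *Lgr5* and 0.0067 for *Dkk3*, where 0.265% of 16214 genes were called. Without the filter and with mouse as a block both calls stood (adjusted p = 0.0464 and 0.0220, where 0.278% were called). DESeq2 gave no adjusted p for either gene. Against a floor of 3 counts over the group, EGFP+ cells were at least 4.65-fold lower for *Lgr5* and at least 5.20-fold lower for *Dkk3*. In EGFP- cells the same genes had 4 and 3 counts, ratios to viable cells of 0.561 (95% exact binomial interval 0.137 to 1.72, counting error only) and 0.376 (interval 0.0713 to 1.28).

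The call of *Sfrp1* in EGFP+ cells was lost in DESeq2 (adjusted p = 0.226, where 0.303% of 3954 genes were called) and when an EGFP+ or a viable library of either mouse was left out (edgeR adjusted p between 0.171 and 0.758), while its log2 difference stayed between -1.37 and -1.27 without any 1 of the 6 libraries. In EGFP- cells *Sfrp1* was called in every alternative run, where fits without a library of a compared group leave 1 library there, assumed to vary like the others. DESeq2 was among them (adjusted p = 0.000763, where 3.4% of 1440 genes were called).

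**Figure D2:**
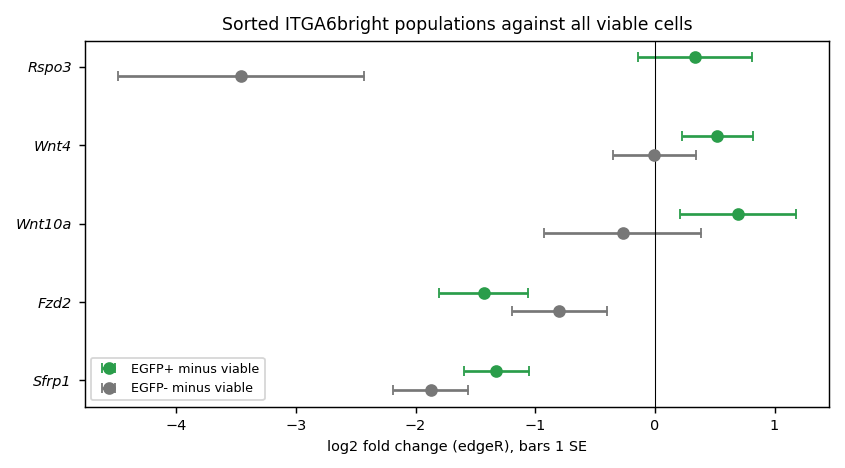
Log2 fold change of the 5 genes with enough counts in EGFP+ (green) and EGFP- cells (grey) compared with viable cells, with bars of 1 SE from edgeR. *Sfrp1* lies at -1.32 and -1.87, and *Rspo3* lies at 0.33 in EGFP+ and -3.46 in EGFP- cells.

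Among single cells most of the genes were highest either in IFE-like or in follicle clusters, except *Lgr6* and *Axin2*. Wells of each experiment were clustered with all Wnt pathway genes left out of the clustering, and clusters were named by markers. In the Troy-EGFP plates 498 epidermal cells gave 163 IFE I-like cells (basal, led by *Il1r2* and high in *Krt14*), 115 IFE II-like cells (*Krt1*, *Krt10*), 34 upper HF-like cells (*Cst6*, *Krt79*) and 2 clusters that took the lower HF name. One of these, 111 cells led by *Cd34* with *Lhx2* and *Krt24* in its top genes, is the bulge-like cluster. The other, 75 cells led by *Akr1c18*, *Aspn* and *Fst*, had 1 lower HF marker among its top genes and is described apart. It did not hold under other clusterings. At a resolution of 1.2 in place of 0.8 it gave way to 42 lower HF-like cells led by *Aspn* and 34 unnamed cells led by *Akr1c18*, and at 0.5 *Akr1c18* was among the top genes of 69 upper HF-like cells. The same joining with upper HF-like cells was seen with Wnt genes kept, with observed barcodes, with mouse not regressed out and without plate 2, so values of the 75 cells are those of a mixed cluster. The traced plates gave 124 IFE I-like, 43 IFE II-like, 100 *Cd34*-led lower HF-like and 48 upper HF-like cells, and 87 cells led by *Aldh3a1* and *Sostdc1* that took no name but also had *Fst* and *Igfbp4* in their top genes. The latter cells also formed no cluster of their own at 0.5, and at 1.2 the 66 cells led by *Aldh3a1* had *Cd74* in their top genes, took the Langerhans cell name and were removed, as were 44 cells with *Aldh3a1* and *H2-Ab1* in their top genes when traced mouse 1 was left out. In the 87 cells *Cd74* was at 86.9 CPM and *Cd207* at 8.98 CPM, compared with 13756 and 1900 CPM in Langerhans cell-like cells of the Troy-EGFP plates. Values below are CPM of the summed cells of a cluster in each mouse with at least 10 of them, which left Troy-EGFP plates 2, 3 and 4 and both traced plates. The study's own classes were not among the tables, so rebuilt names may differ from it.

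*Rspo3* transcripts were found nearly always in IFE-like cells. IFE I-like cells held 84.5, 63.5 and 73.6 CPM in Troy-EGFP mice 2, 3 and 4 (73.9 ± 10.5, SD, n = 3), and IFE II-like cells 0, 28.9 and 21.6 CPM. No transcript was seen in 111 *Cd34*-led or 75 *Akr1c18*-led cells, which allows up to 8.57 and 12.1 CPM, and none in the 100 *Cd34*-led or 87 *Aldh3a1*-led cells of the traced plates. IFE I-like and IFE II-like cells together held 76.4% and 21.8% of the 55 epidermal transcripts of *Rspo3* in the Troy-EGFP plates, and 80% and 20% of 15 in the traced plates. The 1 remaining transcript was in an upper HF-like cell. In traced IFE I-like cells *Rspo3* was at 11.2 and 45.8 CPM, below every Troy-EGFP mouse. A transcript was detected in 17.2% of Troy-EGFP IFE I-like cells (exact 95% interval 11.7 to 23.9), in 6.79% once each cell was thinned to 1000 barcodes, and in 1 of 43 T cell-like cells (2.33%), the cells that should lack it. Median depths were 3223 and 1717 transcripts a cell in these 2 clusters.

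*Wnt4* had a similar but wider spread. IFE I-like cells held 169, 154 and 136 CPM in Troy-EGFP mice and 116 and 127 CPM in traced mice. In *Cd34*-led cells it was at 47.9, 42.3 and 49.6 CPM in the former and 56.9 and 29.8 CPM in the latter, so every mouse had more in IFE I-like cells. IFE II-like cells (0 to 65.2 CPM over 5 mice) overlapped the *Cd34*-led cells. Traced *Aldh3a1*-led cells had 56.0 and 104 CPM, compared with 0, 16.8 and 43.0 CPM in *Akr1c18*-led cells.

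*Wnt10a* was mainly an IFE I-like transcript and varied more between mice than any other ligand. IFE I-like cells of Troy-EGFP mice 2, 3 and 4 held 127, 37.1 and 25.7 CPM, and those of the traced mice 232 and 208 CPM. The traced mice were above all 3 Troy-EGFP mice, and mouse 2 was above mice 3 and 4. *Wnt10a* was detected in 42.7% of traced IFE I-like cells (interval 33.9 to 51.9; 20.2% thinned) and 16.0% of Troy-EGFP IFE I-like cells (interval 10.7 to 22.5; 8.02% thinned), and in 0 of 27 and 0 of 43 T cell-like cells. Unlike *Rspo3*, it was also present in the traced *Aldh3a1*-led cells, at 118 and 86.5 CPM, and in *Cd34*-led cells at 0 to 89.5 CPM over 5 mice. Mouse 2 was above mice 3 and 4 in *Cd34*-led and *Akr1c18*-led cells as well.

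Of the receptors, *Lgr5* was nearly restricted to the *Cd34*-led cells. They held 543, 84.6 and 110 CPM in Troy-EGFP mice 2, 3 and 4 and 310 and 149 CPM in traced mice. That was 92.5% of 67 epidermal transcripts in the Troy-EGFP plates and 100% of 79 in the traced plates, from 22.3% and 24.9% of the epidermal cells. *Akr1c18*-led cells had 2 transcripts and *Aldh3a1*-led cells 0, which allows up to 8.98 CPM. The *Cd34*-led cells were not uniform. At a resolution of 1.2 the Troy-EGFP plates gave 89 lower HF-like cells led by *S100a4* and 21 led by *Fgf18* (plates summed), where *Lgr5* was at 164 and 264 CPM, *Sfrp1* at 1034 and 117 CPM, *Fzd2* at 635 and 132 CPM, *Dkk3* at 567 and 88.1 CPM and *Shisa2* at 287 and 294 CPM. *Lgr5* and *Shisa2* were thus at least as high in the smaller cluster in these sums, and the other genes lower. The *Lgr5* value of the smaller cluster is 18 transcripts in 21 cells. *Lgr5* differed between mice and the share of each mouse in the 2 clusters was not compared, so its order is uncertain. *Fzd2* reached further: it was at 575, 614 and 436 CPM in *Cd34*-led and 177, 521 and 189 CPM in *Akr1c18*-led cells, and between 14.7 and 52.9 CPM in IFE I-like cells of Troy-EGFP mice. In traced mice *Fzd2* was at 246 and 189 CPM in *Cd34*-led cells, below every Troy-EGFP mouse, at 18.7 and 57.7 CPM in *Aldh3a1*-led cells and at 0 in 124 IFE I-like cells.

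*Lgr6* was rare everywhere, with 22 epidermal transcripts in the Troy-EGFP plates and 10 in the traced plates. Of the 22, 10 were in IFE I-like cells and 10 in *Akr1c18*-led cells, 1 each in IFE II-like and *Cd34*-led cells and 0 in upper HF-like cells. *Lgr5* and *Lgr6* thus had their transcripts in different clusters, *Akr1c18*-led cells holding 10 of *Lgr6* and 2 of *Lgr5* and *Cd34*-led cells 1 of *Lgr6* and 62 of *Lgr5*. At a resolution of 1.2 the 34 *Akr1c18*-led cells held 7 *Lgr6* and 6 *Fzd2* transcripts, and the 42 *Aspn*-led cells 3 and 58.

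The inhibitors *Sfrp1*, *Dkk3* and *Shisa2* were all highest in follicle clusters and were spread over them unequally, with *Sfrp1* and *Dkk3* highest in *Cd34*-led cells of both experiments. *Sfrp1* was at 1279, 974 and 535 CPM in *Cd34*-led cells of Troy-EGFP and 1062 and 1080 CPM in those of traced mice, but at 0 to 48.4 CPM in *Akr1c18*-led cells. It was not absent from the IFE: IFE I-like cells had 161, 74.1 and 40.5 CPM in Troy-EGFP and 78.7 and 127 CPM in traced mice, which was above IFE II-like cells except in Troy-EGFP mouse 4 (40.5 against 47.6 CPM). *Sfrp1* was detected in 70.3% of *Cd34*-led cells (interval 60.9 to 78.6; 45.9% thinned), 20.9% of IFE I-like cells (6.79% thinned) and 6.98% of T cell-like cells (4.65% thinned). After thinning, the share in IFE I-like cells was thus close to that in T cell-like cells, though none of the 39 Langerhans cell-like cells held a transcript.

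*Dkk3* in *Cd34*-led cells was at 911, 286 and 309 CPM in Troy-EGFP and 316 and 313 CPM in traced mice. In *Akr1c18*-led cells it was at 274, 101 and 189 CPM, and in IFE I-like cells at 25.4 CPM at most. Mouse 2 had the highest *Dkk3*, *Lgr5* and *Sfrp1* of all 5 mice in these cells. *Shisa2* was at 352, 381 and 199 CPM in *Cd34*-led and 371, 471 and 284 CPM in *Akr1c18*-led cells, a little higher in the latter in each of the 3 mice. At a resolution of 1.2 the 42 *Aspn*-led cells held 86 *Shisa2* and 49 *Dkk3* transcripts (710 and 405 CPM, plates summed), as many as the 75 cells had, and the 34 *Akr1c18*-led cells held 0 of either. In the IFE-like clusters it had 1 transcript in 278 cells of the Troy-EGFP plates and 0 in 167 cells of the traced plates. Its traced values were 449 and 174 CPM in *Cd34*-led cells and 0 and 5.76 CPM in *Aldh3a1*-led cells.

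*Axin2* had no cluster of its own. It was at 67.6, 47.6 and 69.9 CPM in IFE I-like, 19.8, 49.5 and 47.6 CPM in IFE II-like and 0, 21.2 and 5.52 CPM in *Cd34*-led cells of Troy-EGFP mice. In traced mice the same clusters held 26.2 and 50.9, 34.7 and 86.9, and 25.3 and 19.9 CPM. The *Cd34*-led cells were thus the lowest of these 3 in all 5 mice, though by under 1 CPM in traced mouse 1. *Axin2* was detected in 19.0% of Troy-EGFP IFE I-like cells (7.41% thinned) and in 11.6% of T cell-like cells (6.98% thinned). Shares at this depth thus do not separate these clusters. T cell-like cells held 45.2 and 98.3 CPM in 2 Troy-EGFP mice, which overlaps IFE I-like cells. Whether they make *Axin2* was not tested, so they are not read as its background. Thinned shares were 2.56% in Langerhans cell-like and 0.901% in *Cd34*-led cells of these plates. In traced plates they were 0.806% in IFE I-like and 7.41% in T cell-like cells.

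**Figure D3:**
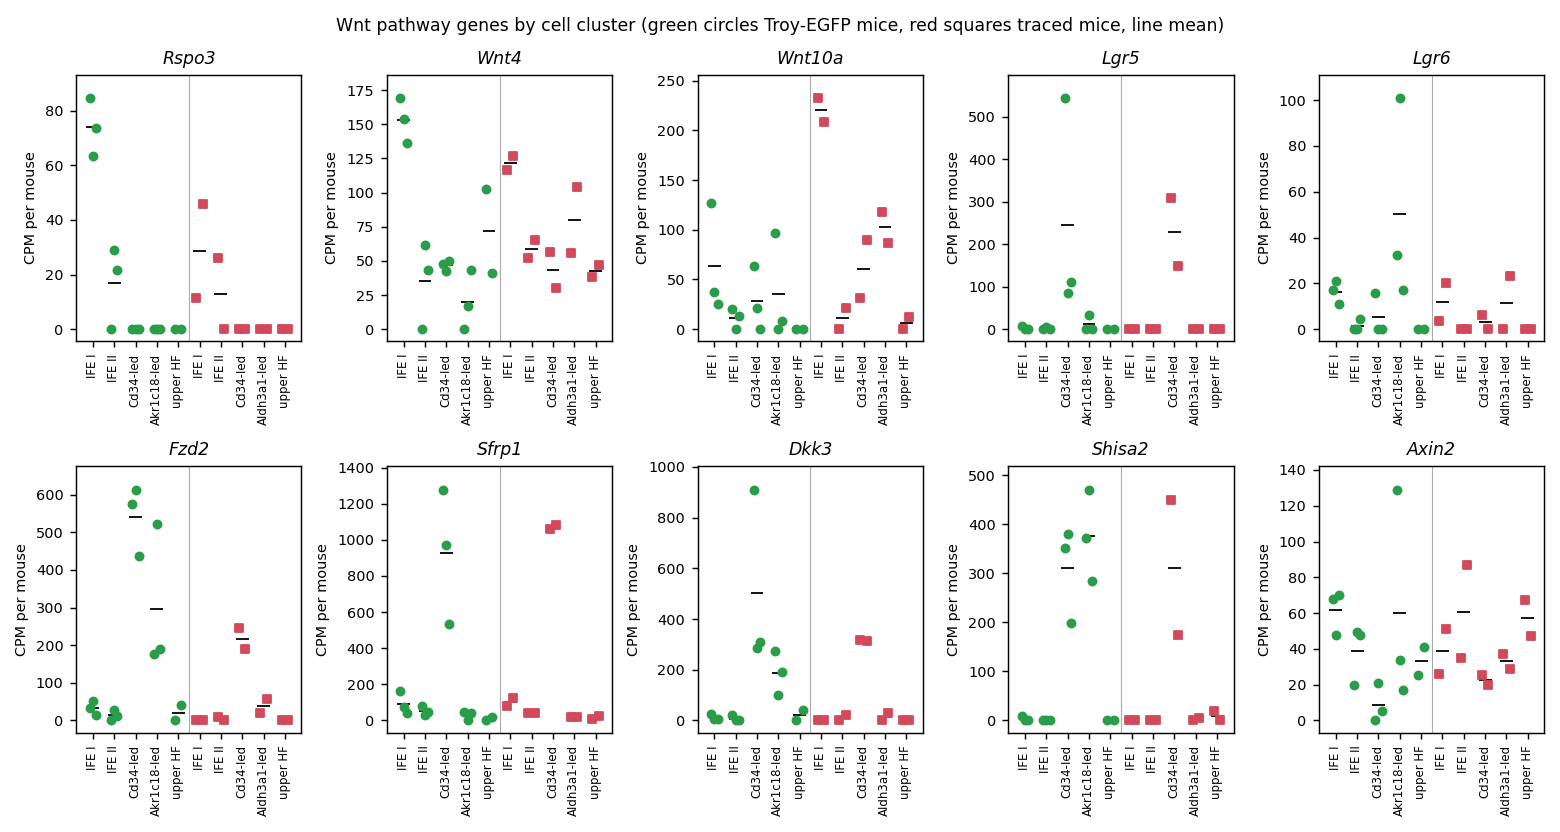
Levels by cluster, in CPM of the summed cells of a mouse on the vertical axis, for Troy-EGFP mice (green circles) and traced mice (red squares), with the mean as a line. *Rspo3*, *Wnt4* and *Wnt10a* are highest in IFE I-like cells, *Lgr5*, *Sfrp1* and *Dkk3* in *Cd34*-led cells, and *Shisa2* in both lower HF-like clusters of Troy-EGFP mice.

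Summarised over the clusters, 5 of the 10 genes (*Lgr5*, *Fzd2*, *Sfrp1*, *Dkk3* and *Shisa2*) were higher in *Cd34*-led than in IFE-like cells in every mouse of both experiments, as were 9.38% of 8796 genes with at least 10 epidermal transcripts in each experiment. The mean log2 difference, on log2(CPM + 10), ran from 3.52 ± 0.49 for *Sfrp1* to 4.73 ± 0.49 for *Shisa2* in Troy-EGFP mice (SD, n = 3) and from 3.54 ± 0.34 for *Sfrp1* to 4.86 ± 0.93 for *Shisa2* in traced mice (n = 2). In IFE-like cells *Shisa2* had 1 transcript in Troy-EGFP and 0 in traced plates, and *Lgr5* 0 in the latter. There the added 10 CPM sets the size of the difference, so the order of the genes is not read. *Rspo3*, *Wnt4* and *Axin2* were lower in *Cd34*-led cells in all 5 mice (3 of 10, beside 10.4% of genes), by -2.60, -1.01 and -1.91 in Troy-EGFP mice and by -1.70, -1.12 and -0.71 in traced mice. The spread of *Axin2* in traced mice was as large as its difference (SD 0.81, n = 2), and with traced mouse 1 clustered alone it was 0.09, the opposite direction. *Wnt10a* and *Lgr6* were lower in some mice only. Because the genes were chosen with clusters of these cells in view, these differences carry no test.

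**Figure D4:**
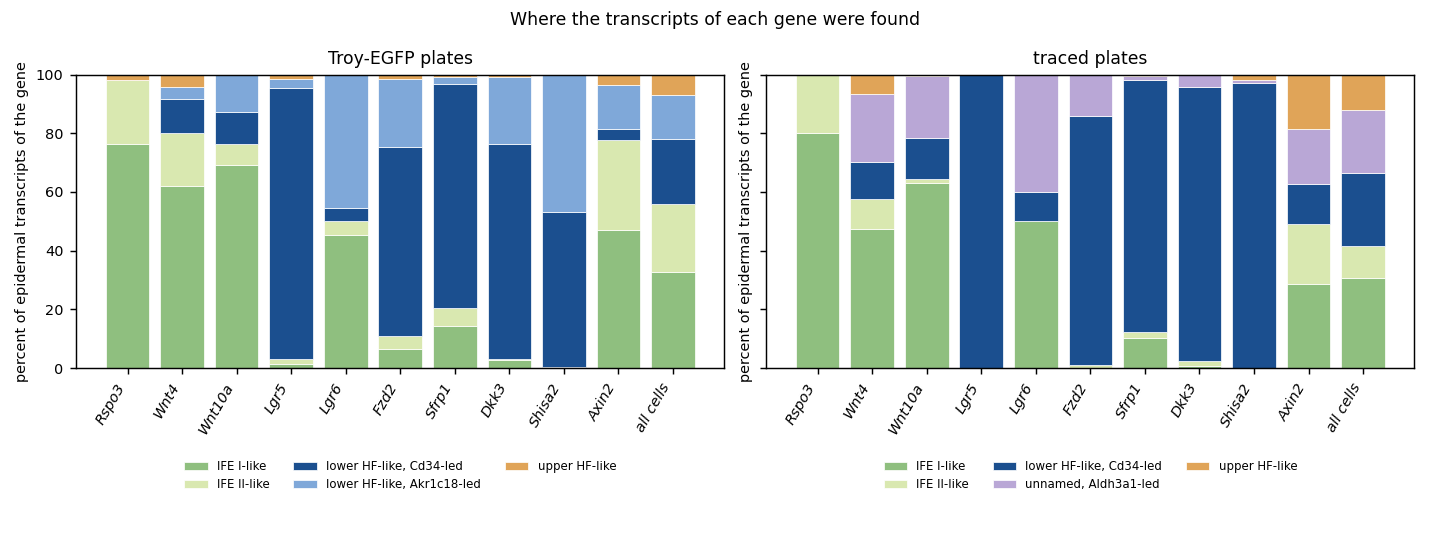
Share of the epidermal transcripts of each gene (percent, vertical axis) that came from each cluster, pooled over mice, beside the share of all cells at the right. IFE-like clusters (green) hold most *Rspo3*, *Wnt4* and *Wnt10a* transcripts, and *Cd34*-led cells (dark blue) hold 92.5% and 100% of *Lgr5* transcripts.

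Genes with the most similar pattern were sought for the 5 genes with at least 100 epidermal transcripts in the Troy-EGFP plates, by Pearson's r of log2(CPM + 10) over 14 sums (a mouse and a cluster each) among 2958 genes. Clusters of a mouse share a library and the clusters define the pattern, so r is a description. For *Fzd2* they were *Lhx2* (r = 0.956), a bulge transcription factor, *Tcf12* (0.933) and *Ptn* (0.930). *Dkk3* was most like *Tgm5* (0.977), *Lhx2* (0.951) and *Sema3e* (0.930), and *Shisa2* most like *Thsd1* (0.974), *Ctgf* (0.964) and *Ptn* (0.964). For *Sfrp1* they were the collagen genes *Col6a1* (0.901) and *Col18a1* (0.848) and *Prss23* (0.848). *Wnt4* had lower values, with *Ets2* (0.864), *Fbxo32* (0.846) and *Ntan1* (0.834). Between the genes themselves, r was 0.914 for *Fzd2* and *Shisa2* and 0.907 for *Dkk3* and *Shisa2*, but 0.394 for *Sfrp1* and *Shisa2*.

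Whole plates of traced and Troy-EGFP mice were compared to ask whether the genes differed between the experiments, on transcripts summed over all kept wells of a plate. No gene of the 10 was called by edgeR (0 of 10, beside 0.384% of 9103 genes), nor by DESeq2 (0 of 10, beside 3.08% of 9766 genes). At an unadjusted p under 0.05 edgeR had 1 of 10, *Fzd2*, beside 1486 of the 9103 genes. The median log2 difference of the 10 genes was -0.30, and -0.01 over all genes tested. In simulated data this comparison missed changes larger than any seen in these genes, so the lack of a call does not show that they were alike. Genotype, tamoxifen, sorting gates and possibly sex changed together between these plates and cannot be told apart, and differing shares of cell types enter a plate sum.

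The closest to a call was *Fzd2*, at 72.2, 142, 143 and 110 CPM on Troy-EGFP plates 1 to 4 and 48.3 and 55.2 CPM on traced plates, which do not overlap (log2 difference -1.21 ± 0.35, edgeR adjusted p = 0.180). *Rspo3* was at 0, 31.4, 24.8 and 24.8 CPM on Troy-EGFP plates and 6.73 and 10.3 CPM on traced plates, overlapping only through plate 1 (-1.42 ± 0.73, adjusted p = 0.384). *Wnt10a* was at 72.2, 73.4, 11.8 and 10.9 CPM on Troy-EGFP plates and 96.5 and 88.5 CPM on traced plates (1.36 ± 0.76, adjusted p = 0.425). Plates 1 and 2 were thus near the traced plates, and plates 3 and 4 far below. The deposited names of plates 1 and 2 carry the letter M and those of plates 3 and 4 the letter F, which the labels do not explain. The split of *Wnt10a* follows these letters, and it also follows the yield and depth of the plates. Plates 1 and 2 kept 71 and 129 wells (medians of 1676 and 2232 transcripts), and plates 3 and 4 kept 218 and 262 (3098 and 3022). On plate 1 the value rests on 9 transcripts in 5 wells. The part of sex, yield or depth in the split was not tested. *Wnt4* was the steadiest of the genes, between 64.2 and 74.5 CPM on all 6 plates. *Tnfrsf19*, which the knockin allele disrupts, was at 32.1 to 56.5 CPM on Troy-EGFP plates and 5.61 and 8.05 CPM on traced plates (log2 difference -2.80 ± 0.45, edgeR adjusted p = 0.0529). It was called in DESeq2 (adjusted p = 0.00104) and in epidermal cells alone (edgeR adjusted p = 0.0366).

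**Figure D5:**
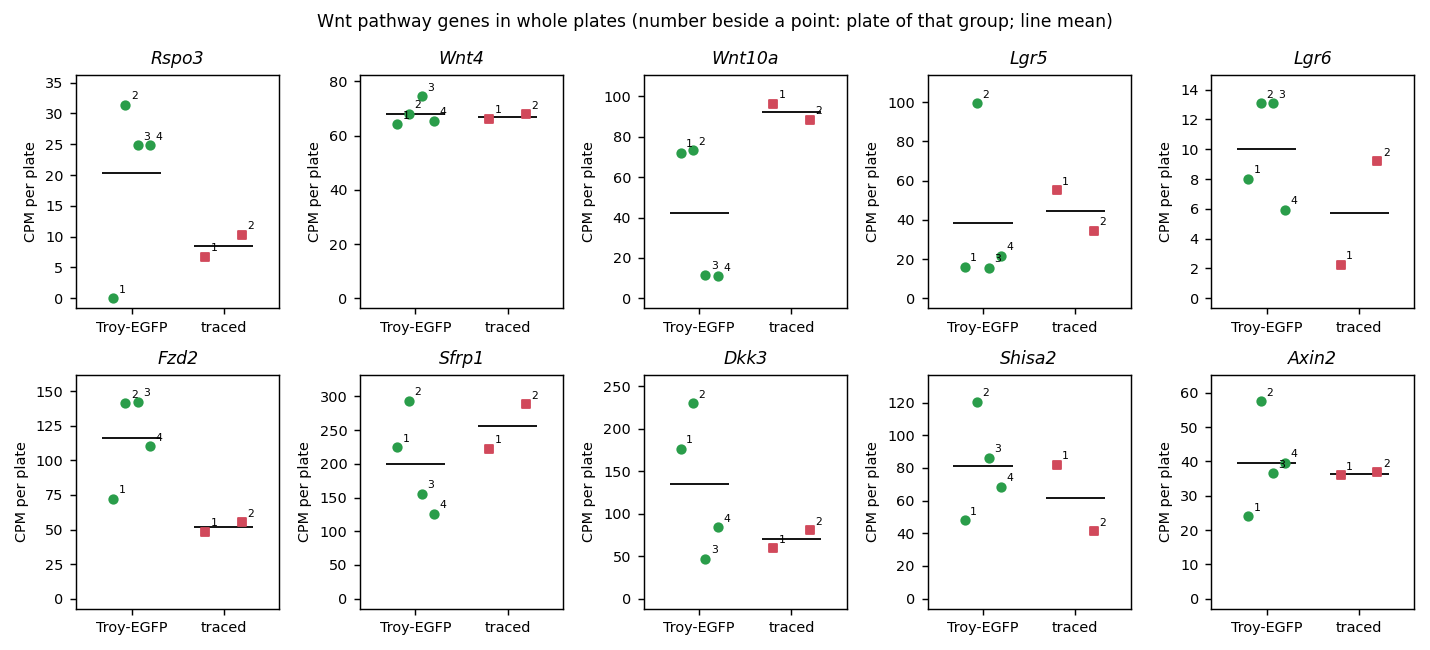
Levels of the 10 genes in whole plates, in CPM on the vertical axis, for the 4 Troy-EGFP plates (green circles) and 2 traced plates (red squares), numbered by plate, with the mean as a line. *Fzd2* is lower on both traced plates, and *Wnt10a* separates Troy-EGFP plates 1 and 2 from plates 3 and 4.

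Other genes of the pathway were taken from a list of 84, of which 82 were in the tables and 25 had enough bulk counts. Compared with viable cells 0 of 25 were called in EGFP+ cells by edgeR, and 0 by DESeq2. At an unadjusted p under 0.05 edgeR had 2 of the 25, beside 310 of 4653 genes. In EGFP- cells 1 of 25 was called beside 1.78% of all genes, the co-repressor *Tle1*, which was higher by 2.10 ± 0.52 on the log2 scale (edgeR adjusted p = 0.0421) but had 9 and 53 counts in the EGFP- libraries and was not called without the second of them (adjusted p = 0.672), without viable replicate 2 (0.357) or with only the 4 libraries compared (0.108). DESeq2 gave no adjusted p for it there. With mouse as a block 3 of 25 were called beside 3.5% of all genes, *Tle1*, *Wnt3* (-2.17 ± 0.60, edgeR adjusted p = 0.0226) and *Ccnd1*, a cyclin (-1.11 ± 0.34, adjusted p = 0.0487). Between EGFP+ and EGFP- cells 5 of 25 were called, beside 7.05% of all genes. The ligand *Wnt3* was higher in EGFP+ cells, with 62 and 17 counts against 3 and 2 (log2 difference 2.92 ± 0.58, edgeR adjusted p = 0.00313), and so was the receptor *Fzd10* (1.31 ± 0.38, adjusted p = 0.0417). The R-spondin receptor *Lgr4* fell by 1.58 ± 0.43 in EGFP+ cells (adjusted p = 0.0288), as did the receptor *Fzd3* (-2.26 ± 0.64, adjusted p = 0.0371) and *Tle1* (-2.87 ± 0.59, adjusted p = 0.00404). With mouse as a block 7 of 25 were called beside 10.1% of all genes, these 5 and *Ccnd1* (1.03 ± 0.35, adjusted p = 0.0419) and the inhibitor *Sostdc1* (-0.96 ± 0.31, adjusted p = 0.0335). DESeq2 called 2 of the 25, *Wnt3* and *Tle1*, beside 2.33% of 5840 genes. Leaving out 1 library ended the calls of *Wnt3* (without EGFP+ replicate 1, edgeR adjusted p = 0.0908) and *Tle1* (without EGFP- replicate 2, adjusted p = 0.218). The calls of *Lgr4*, *Fzd10* and *Fzd3* were each lost without either EGFP+ library (adjusted p between 0.0923 and 0.205) and without 1 or more other libraries. In the plates 0 of 42 tested were called by edgeR, and 0 by DESeq2. At an unadjusted p under 0.05 edgeR had 2 of the 42, beside 1486 of 9103 genes.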

How the data were processed

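Bulk mRNA of 3 sorted populations of 2 mice (CEL-Seq2) and single cells of 6 mice (SORT-seq) were analysed. Members and gene lists were chosen with earlier results of these data known. Bulk values are raw counts per gene as the authors deposited them, not normalized. For the plates the authors deposited estimated transcripts (expected counts, entered under the unit other) per gene and well, corrected for barcodes drawn more than once, and every value turned back into whole 6-base barcodes within 1e-06. The submitters' processing notes name BWA 0.6.2-r126 and mm10, and hg19 for bulk. CEL-Seq2 counts 3′ ends, whose number is not tied to gene length.

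edgeR's quasi-likelihood test (version 4.0.16, R 4.3.3) was run on counts after TMM and filterByExpr, with p-values adjusted by Benjamini-Hochberg and called under 0.05, over all genes and all libraries of an experiment, the plates as sums per mouse rounded to whole numbers. Libraries that share a number are 1 mouse's, which pairs them, and deviations of same-numbered libraries correlated with r between 0.056 and 0.094. Cells were clustered with Seurat 5.3.0 (SCTransform, 20 principal components, resolution 0.8) and T cell-like, Langerhans cell-like and 2 unnamed clusters were removed, with no doublet caller, since wells held 1 sorted cell. Shares have exact binomial 95% intervals that cover counting error only, and were repeated with cells thinned to 1000 barcodes, which left out 1 of 498 Troy-EGFP epidermal cells. The text names the 10 genes, *Tnfrsf19*, other Wnt genes called (at most 10 a comparison), and the 3 most similar genes of those with at least 100 transcripts. Alternatives were DESeq2 1.42.0, RLE, no filter, fewer libraries, a replicate block, leaving out each library, other resolutions, a minimum of 2000 transcripts, observed barcodes, Wnt genes kept and mouse not regressed. No filter with the block was added after seeing the data. The scripts were tested on simulated data. A list of well barcodes was not used.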

Additional observations from a re-analysis of the deposited data

Results flagged for a closer look

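*Lgr5*, the R-spondin receptor of lower follicle stem cells, was at 99.6 CPM on Troy-EGFP plate 2 and between 15.7 and 21.8 CPM on the other 3 Troy-EGFP plates, and the gap of plate 2 to the nearest plate, as a share of the range, was above Dixon's 95% critical value for 4 samples. It was the 1 flag among 10 genes tested this way, and chance gives about 1 in 20 groups. Of the 38 *Lgr5* transcripts on plate 2, 34 came from its 24 *Cd34*-led cells, and plate 2 also had the highest *Dkk3* and *Sfrp1* of the mice in these cells. Whether plate 2 differs for a technical or a biological reason was not tested.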

How the results depend on the processing

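The numbers of genes called over all genes moved with most settings. In EGFP+ against viable cells edgeR called 22 genes, and 12 with DESeq2, 43 without the filter, 66 in only the 4 libraries compared, 49 with the replicate block, 45 with no filter and the block, and 7 to 124 without 1 library. In EGFP- against viable cells it called 83, and 49 with DESeq2, 133 without the filter, 38 in 4 libraries, 163 with the block, 135 with no filter and the block, and 27 to 464 without 1 library. For EGFP+ against EGFP- cells it called 328, with 136 in DESeq2, 151 in 4 libraries and 131 to 751 without 1 library, and 468 with the block. The count moved by over 1.5 times in the first comparison without any library but viable replicate 2 (11 without viable replicate 1, 7 and 12 without an EGFP+ library, 124 and 123 without an EGFP- library). It did so in the second without either viable library (35 and 27) or either EGFP- library (180 and 464), and in the third without EGFP+ replicate 1 (131) or EGFP- replicate 2 (751). For traced against Troy-EGFP plates 35 genes were called, and 301 with DESeq2, 340 without the filter, 53 in only epidermal cells, 52 with a minimum of 2000 transcripts and 0 to 642 without 1 plate. It was 0 without either traced plate or Troy-EGFP plate 4, 1 without plate 3, 97 without plate 1 and 642 without plate 2. The replicate block gave 737, where *Dkk3* alone of the 10 genes was called (adjusted p = 0.00139, beside 8.1% of all genes), but the numbers of plates name different mice (correlations of deviations 0.00944 and 0.00113). The cause of these shifts was not tested, beyond the larger number of genes tested without a filter (16214 and 18263). In bulk the mouse block changed no call among the 4 genes tested. The count of genes higher in *Cd34*-led cells in every mouse stayed at 5 in Troy-EGFP mice in all 10 alternatives, some of which had values for only 2 mice. It stayed at 5 in all alternatives with both traced mice. With 1 traced mouse left out it was 5 or 7, where every mouse means the 1 that was left. *Lgr5*, *Dkk3*, *Shisa2*, *Lgr6* and *Axin2* had under 30 counts in every bulk population, so depth limits what can be said of them there.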
